A study of Mus musculus with 6 samples.

Results

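Mitochondrial ribosomal protein genes were examined in LSK cells of bone marrow, the cells that lack mature lineage markers and display Sca-1 and Kit on their surface. The genes were chosen by symbol alone, as those that begin with Mrpl or Mrps and a number. Each gene was read from its brightest probe with a single gene symbol, meaning the one whose mean over the 6 arrays was highest. This gave 71 genes of the 22180 genes measured, 43 named for the large subunit (Mrpl) and 28 named for the small subunit (Mrps). RefSeq lists 78 protein-coding mouse genes of this symbol pattern. Mrpl30, Mrpl33, Mrpl41, Mrpl43, Mrpl44, Mrpl53 and Mrps6 had no probe with a single symbol and are not among the 71.

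The study set 3 arrays of YFP-positive LSK cells against 3 arrays of YFP-negative LSK cells. Both populations came from C57Bl6 mice that carried the tamoxifen-inducible transgene Tg(Cdh5-Cre/ERT2) and the Rosa 26 YFP reporter, and both populations had received tamoxifen on days 1, 2 and 3 after birth. Sorting took place at postnatal day 27, or 26 days past the first dose. The promoter of Cdh5, which encodes VE-cadherin of endothelial junctions, drives Cre in this line, so that YFP marks cells in which Cre was active and the descendants of such cells. Whether each replicate was a separate animal is not in the labels, so the p-values cover the spread among these arrays alone, and that spread may be technical.

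The mitochondrial ribosome, or mitoribosome, translates the few messenger RNAs encoded by mitochondrial DNA, which specify core subunits of the respiratory chain and of ATP synthase. Its large subunit joins amino acids and its small subunit decodes the messenger RNA. All of its proteins are encoded in the nucleus, made in the cytosol and imported into the organelle, where they assemble on RNA made from mitochondrial DNA. Blood stem cells are known to rely largely on glycolysis while quiescent and to raise mitochondrial activity when they enter differentiation.

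The deposited values are log2 expression values, with array medians of 3.62 to 3.68. Across genes, which are not independent replicates, r was 0.946 to 0.968 for pairs of arrays within a population and 0.888 to 0.924 for pairs between populations. Cdh5 stood at 11.63, 11.84 and 11.29 in the YFP-positive arrays, against 5.40, 4.55 and 3.71 in the YFP-negative arrays. Kit, the stem cell factor receptor that defines the gate, stood at 6.98, 6.56 and 7.06 in YFP-positive cells, against 7.57, 7.96 and 7.74 in YFP-negative cells (adjusted p = 0.0496, lost whichever array was left out). Ptprc, a leukocyte marker, stood at 6.52, 6.95 and 9.52 in YFP-positive arrays, against 9.33, 9.23 and 9.37 in YFP-negative arrays. It did not pass (limma, adjusted p = 0.353), except without YFP-positive replicate 3 when an array was left out (adjusted p = 0.00256). Among marker lists, 17 of 18 endothelial genes were higher in YFP-positive cells, 6 of 11 gate and progenitor genes were lower, and 2 of 16 leukocyte genes were lower. The leukocyte markers separated the YFP-positive arrays from each other. Their mean level was 5.95 and 6.08 in YFP-positive replicates 1 and 2 and 8.06 in YFP-positive replicate 3, against 8.01 to 8.15 in the YFP-negative arrays. Results on the mitoribosomal genes are therefore given also without YFP-positive replicate 3.

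Most mitoribosomal protein genes had mean values in YFP-positive LSK cells below those in YFP-negative LSK cells, in both subunits, and few of these differences passed the test gene by gene. The difference, YFP-positive minus YFP-negative in log2 units, was below 0 for 62 of 71 genes (87.3%), against 51.3% of all genes. Its median over the 71 genes was -0.69, a 1.61-fold lower level, against -0.01 over all genes. The quartiles were -0.87 and -0.19, the lowest value was -2.03 and the highest 0.48. In such bulk samples, fewer cells of a type and less RNA per cell cannot be told apart.

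With limma's moderated test and Benjamini-Hochberg adjustment over all 22180 genes, 5 mitoribosomal genes (7.04%) were lower at an adjusted p under 0.05, against 1.96% of all genes. None of the 71 was higher by limma (nor by the unmoderated model, and 0 had an unadjusted p under 0.05), against 2.88% of all genes. At an unadjusted p under 0.05, 28 of the 71 were lower, against 9.44% of all genes. All YFP-positive arrays lay below all YFP-negative arrays for 29 of the 71 (40.8%), against 11.9% of all genes. The reverse order, with all YFP-positive arrays on top, was seen for 0 of the 71, against 10.8% of all genes.

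The mitoribosomal genes are mostly well expressed, and 67 of the 71 had a mean above 3.96, the median over all genes. Among the 11090 genes above that level, 3.77% were lower past the threshold, 17.6% had all YFP-positive arrays below all YFP-negative arrays, and the median difference was -0.03. The 67 mitoribosomal genes above it included the same 5 that were lower (7.46%) and all 29 with separated arrays (43.3%). The 4 genes with a mean at or below the median level were Mrps14, Mrps27, Mrpl45 and Mrpl27, and the level of background was not measured here.

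**Figure D1:**
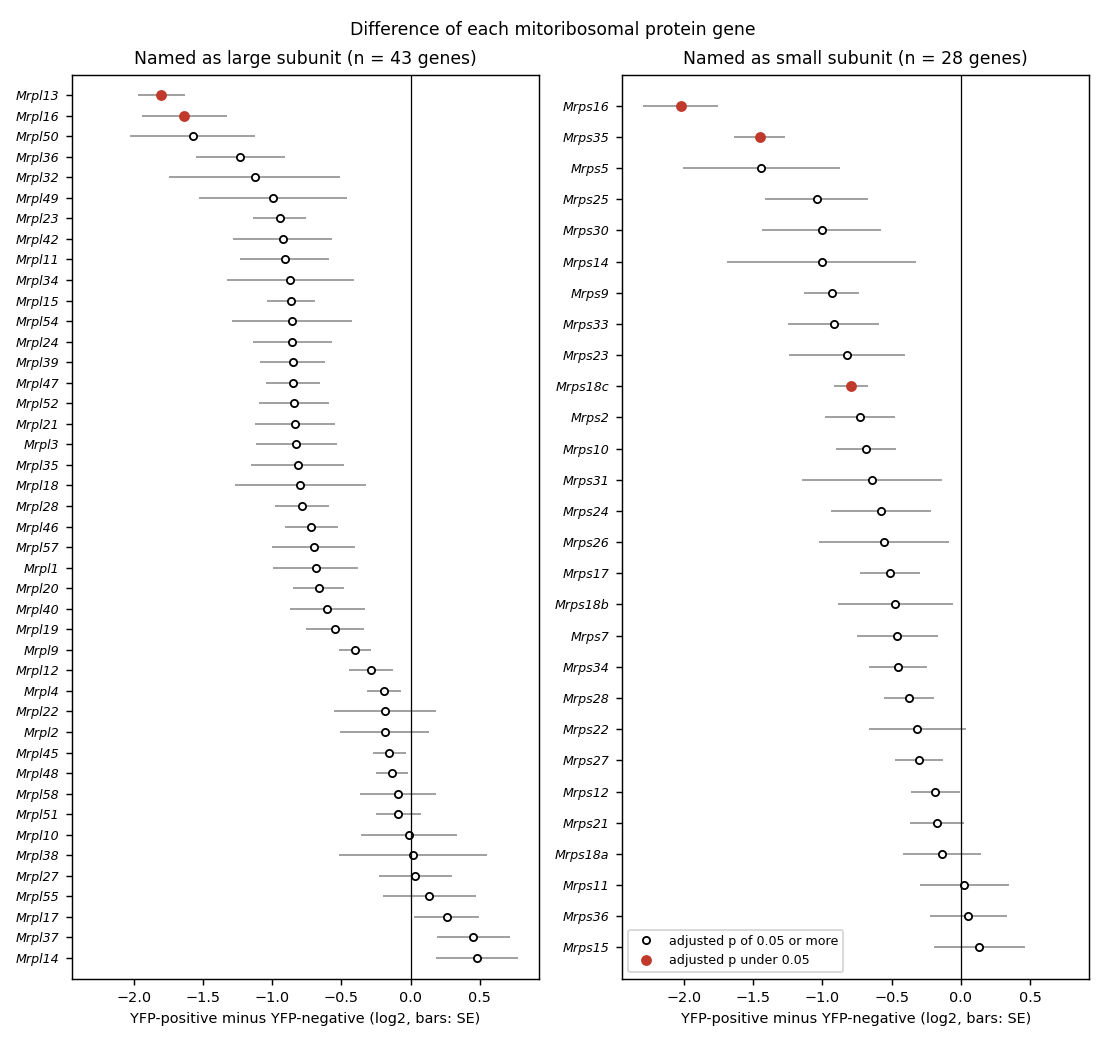
Difference of each of the 71 mitoribosomal protein genes, YFP-positive minus YFP-negative in log2 units (horizontal axis), with genes in order of size, for 43 genes named for the large subunit and 28 named for the small subunit. Bars are moderated standard errors, and filled points are the 5 genes with an adjusted p under 0.05, all of which lie left of 0. 62 of the 71 points lie left of 0.

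The 5 genes that were lower in YFP-positive cells encode proteins of both subunits. Mrps16 encodes a small-subunit protein with a bacterial counterpart and is needed for assembly of that subunit. It stood at 8.52, 7.86 and 7.80 in the YFP-positive arrays, against 10.40, 9.69 and 10.17 in the YFP-negative arrays. The populations did not overlap, and the gap between them was wider than the spread within either. The difference was -2.03 ± 0.27 (SE), a 4.07-fold lower level (adjusted p = 0.0144), and a further probe of the gene gave -1.88. The call was lost without YFP-positive replicate 2 and without YFP-negative replicates 1 and 3, where the adjusted p reached 0.0551 at most.

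Mrpl13, a large-subunit protein with a bacterial counterpart, was the only gene of the 5 to pass in every fit that left out an array. Its values were 5.66, 5.54 and 5.48 in YFP-positive cells, against 7.70, 7.25 and 7.15 in YFP-negative cells. The YFP-positive arrays lay within 0.18 of each other, far below the lowest YFP-negative array. The difference was -1.80 ± 0.17 (SE), or 3.49-fold (adjusted p = 0.00441). In those fits its adjusted p was 0.0234 at most.

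Mrpl16 encodes a large-subunit protein whose bacterial counterpart lies near the site where aminoacyl-tRNA is accommodated. It stood at 5.80, 5.91 and 5.99 in YFP-positive arrays, against 7.05, 8.23 and 7.32 in YFP-negative arrays. The YFP-positive values were close together and the YFP-negative values spread over 1.18, with replicate 2 the highest. The difference was -1.63 ± 0.31 (SE), or 3.10-fold (adjusted p = 0.0414), and it passed in only 1 of 6 fits with an array left out, the fit without YFP-negative replicate 2 (adjusted p = 0.0263, against 0.125 at most in the others).

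Mrps35 encodes a small-subunit protein with no bacterial counterpart. Its values were 5.23, 5.45 and 5.47 in YFP-positive cells, against 6.99, 7.05 and 6.47 in YFP-negative cells. The populations were separated, with YFP-negative replicate 3 closest to the YFP-positive arrays. The difference was -1.45 ± 0.18 (SE), or 2.74-fold (adjusted p = 0.0125), and it was lost without YFP-negative replicate 1 or 2 (0.0540 at most).

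Mrps18c is one of 3 mammalian relatives of a single bacterial small-subunit protein. It had 6.42, 6.13 and 6.12 in YFP-positive arrays, against 7.0, 6.97 and 7.07 in YFP-negative arrays. The YFP-negative values lay within 0.10 of each other, and all were above the YFP-positive values. The difference was -0.79 ± 0.12 (SE), or 1.73-fold (adjusted p = 0.0223). It passed only in the fit without YFP-positive replicate 1 when an array was left out (0.0856 at most), and a dimmer probe of the gene gave -0.33.

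**Figure D2:**
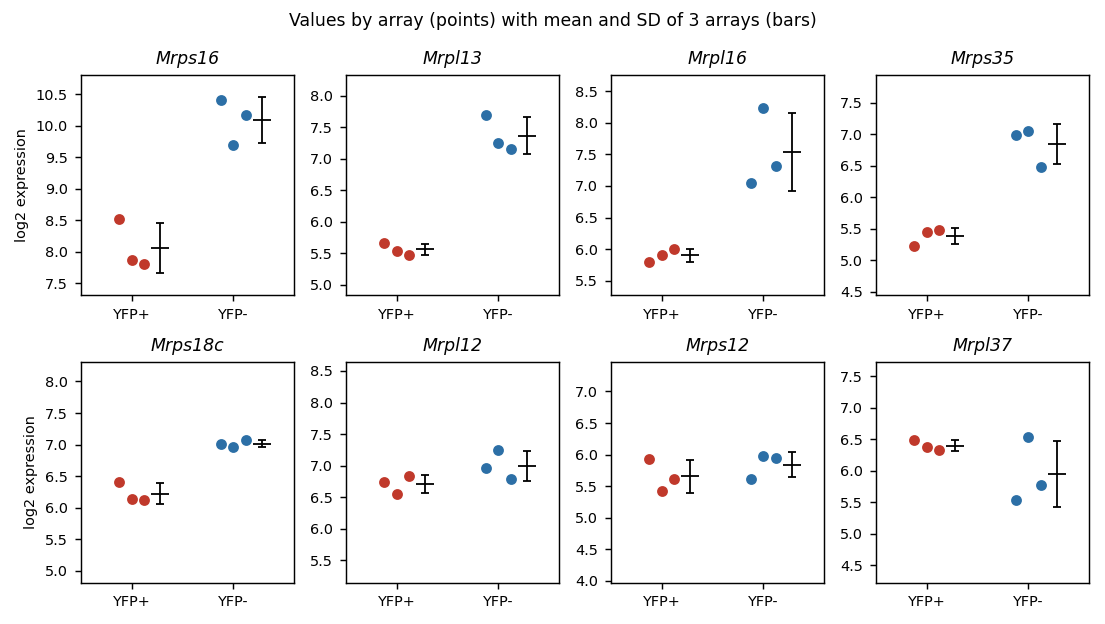
log2 expression on each of the 6 arrays (points, vertical axis) for 8 mitoribosomal protein genes, YFP-positive arrays left and YFP-negative arrays right, with the mean and SD of 3 arrays as bars, and the same height of axis in each panel. Mrps16, Mrpl13, Mrpl16, Mrps35 and Mrps18c, which were lower in YFP-positive cells, show no overlap between populations, while Mrpl12, Mrps12 and Mrpl37 overlap.

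Promoter sequences are given for members whose results differ. Each line gives 150 bases of the reference genome, from 120 bases before to 30 bases after the annotated start of transcription, from RefSeq on GRCm38.p6. Capitals mark an exact match, on either strand, to the motif of the ETS factor GABPA (CCGGAAG), of NRF1 (GCGCATGC) or of YY1 (AAGATGGC), regulators known for their part in nuclear genes of mitochondria. A further match is printed in lower case where it runs past the end of the stretch. Mrps16 (chr14:20393461-20393610, minus strand), Mrpl16 (chr19:11770295-11770444, plus strand) and Mrps18c (chr5:100798639-100798788, plus strand) were lower past the threshold. Mrpl32 (chr13:14613008-14613157, minus strand) had the most NRF1 matches, and Mrpl22 (chr11:58171544-58171693, plus strand) and Mrps18a (chr17:46110884-46111033, plus strand) held matches to a pair of motifs with differences close to 0. Mrpl46 (chr7:78783060-78783209, minus strand) and Mrps11 (chr7:78783011-78783160, plus strand) are transcribed away from each other from starts 42 bases apart.
Mrps16: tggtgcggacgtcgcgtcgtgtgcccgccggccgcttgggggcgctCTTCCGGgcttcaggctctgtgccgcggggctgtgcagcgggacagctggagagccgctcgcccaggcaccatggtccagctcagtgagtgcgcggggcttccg
Mrpl16: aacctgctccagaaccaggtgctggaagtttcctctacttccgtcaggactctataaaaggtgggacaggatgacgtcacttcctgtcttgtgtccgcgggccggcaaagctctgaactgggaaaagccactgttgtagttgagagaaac
Mrps18c: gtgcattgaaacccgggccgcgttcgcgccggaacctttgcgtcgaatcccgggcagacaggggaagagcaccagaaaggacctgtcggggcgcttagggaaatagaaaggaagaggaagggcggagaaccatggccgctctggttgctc
Mrpl32: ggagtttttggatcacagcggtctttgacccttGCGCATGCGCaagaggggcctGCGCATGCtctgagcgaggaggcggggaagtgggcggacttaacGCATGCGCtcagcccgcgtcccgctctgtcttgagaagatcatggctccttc
Mrpl22: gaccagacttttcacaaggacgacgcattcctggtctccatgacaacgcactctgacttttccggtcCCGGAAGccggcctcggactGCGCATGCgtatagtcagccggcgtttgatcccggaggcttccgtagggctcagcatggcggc
Mrps18a: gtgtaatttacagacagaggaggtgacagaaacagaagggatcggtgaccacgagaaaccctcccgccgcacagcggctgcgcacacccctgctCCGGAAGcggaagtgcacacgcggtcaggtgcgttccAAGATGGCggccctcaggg
Mrpl46: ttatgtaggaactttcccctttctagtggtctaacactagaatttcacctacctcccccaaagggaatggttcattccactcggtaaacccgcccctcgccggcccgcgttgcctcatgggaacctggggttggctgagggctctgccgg
Mrps11: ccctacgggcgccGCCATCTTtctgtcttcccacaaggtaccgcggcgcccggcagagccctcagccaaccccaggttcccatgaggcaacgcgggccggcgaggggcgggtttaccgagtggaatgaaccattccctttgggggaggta

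Counted from 1 at the start, with negative positions before it, Mrps16 held the GABPA motif from position -74, on the opposite strand. The stretch of Mrpl16 held no match, and the GABPA match of Mrps18c lay outside the printed stretch, at position -156. Mrpl13 and Mrps35 had no window in the table used. The presence of a match is a description of the sequence and does not show that a factor binds there.

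Just outside the threshold stood 4 further genes, named after their values were seen. Mrpl15, a large-subunit protein with a bacterial counterpart, had 6.85, 7.26 and 7.06 in YFP-positive arrays, against 7.81, 7.75 and 8.20 in YFP-negative arrays (-0.86 ± 0.18, adjusted p = 0.0507). Mrpl23, which belongs to the rim of the tunnel through which the new chain leaves the ribosome, had 6.95, 6.98 and 6.93 in YFP-positive arrays, against 7.57, 7.83 and 8.29 in YFP-negative arrays (-0.95 ± 0.19, adjusted p = 0.0516). In both genes the populations were apart. Mrps9, of the head of the small subunit, had 5.92, 6.07 and 5.97 in YFP-positive cells, against 7.24, 7.01 and 6.51 in YFP-negative cells (-0.93 ± 0.20, adjusted p = 0.0596). Mrpl47, another protein of the tunnel rim, had 7.25, 6.86 and 7.43 in YFP-positive cells, against 8.15, 7.77 and 8.17 in YFP-negative cells (-0.85 ± 0.19, adjusted p = 0.0742). These also did not overlap.

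The remaining genes of the large subunit were read by the place of their protein. Mrpl24, a further protein of the tunnel exit, had 7.14, 7.59 and 7.30 in YFP-positive arrays, against 8.81, 7.96 and 7.83 in YFP-negative arrays, without overlap (-0.85 ± 0.29, adjusted p = 0.191). Mrpl22, whose bacterial counterpart lines the tunnel, had 6.06, 4.86 and 5.01 in YFP-positive arrays, against 5.39, 5.94 and 5.15 in YFP-negative arrays, with overlapping values and an interval of the difference from -1.09 to 0.72. Mrpl4, whose counterpart also lines it, had 6.63, 6.5 and 6.84 in YFP-positive cells, against 6.91, 6.79 and 6.86 in YFP-negative cells, and its interval from -0.50 to 0.11 leaves out a change of 2-fold. Mrpl45, which holds the mitoribosome at the inner membrane, lay at 3.78 to 3.89 in YFP-positive cells and 3.83 to 4.12 in YFP-negative cells, with a mean below the median level of all genes (-0.15 ± 0.12).

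Around the catalytic site, the arrays were apart for Mrpl3 and overlapped for Mrpl2. Mrpl3, whose counterpart in bacteria reaches toward the peptidyl transferase centre, had 6.02, 6.05 and 5.10 in YFP-positive arrays, against 6.79, 6.56 and 6.30 in YFP-negative arrays (-0.83 ± 0.29, adjusted p = 0.214). Mrpl2, of the same centre, had 6.5, 6.16 and 5.67 in YFP-positive arrays, against 6.26, 6.83 and 5.80 in YFP-negative arrays (-0.19 ± 0.32). Mrpl27, whose bacterial counterpart touches tRNA at that site, had a difference of 0.03 ± 0.27 at a mean below the median level.

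The stalk recruits translation factors to the large subunit. Mrpl12, its repeated flexible protein, had 6.74, 6.55 and 6.83 in YFP-positive arrays, against 6.96, 7.24 and 6.78 in YFP-negative arrays. YFP-positive replicate 3 lay above the lowest YFP-negative array, and the interval of the difference, from -0.67 to 0.09, leaves out a change of 2-fold (-0.29 ± 0.16, adjusted p = 0.445). Mrpl10, which ties that protein to the ribosome, had 6.13, 5.62 and 6.19 in YFP-positive cells, against 5.38, 6.67 and 5.92 in YFP-negative cells (-0.01 ± 0.35). Mrpl11, at the base of the stalk, had 5.97, 5.99 and 5.27 in YFP-positive cells, against 6.78, 6.08 and 7.10 in YFP-negative cells. Its populations were apart by a narrow gap at YFP-negative replicate 2 (-0.91 ± 0.32, adjusted p = 0.217).

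Several large-subunit genes had differences as large as the called genes but a wide spread within a population. Mrpl50, a protein with no bacterial counterpart, had 5.79, 5.57 and 5.49 in YFP-positive arrays, against 6.11, 7.75 and 7.71 in YFP-negative arrays. YFP-negative replicate 1 lay apart from the other YFP-negative arrays and close to the YFP-positive arrays. The difference was -1.58 ± 0.45 (adjusted p = 0.134), and without that array the adjusted p was 0.00701. Mrpl36, a small protein with a bacterial counterpart, had 6.83, 7.11 and 6.05 in YFP-positive arrays, against 7.47, 8.05 and 8.17 in YFP-negative arrays (-1.23 ± 0.32, adjusted p = 0.107), with the populations apart. Mrpl32, which in yeast and mouse is matured by the inner-membrane m-AAA protease, had 4.94, 3.84 and 6.26 in YFP-positive cells, against 5.57, 6.48 and 6.38 in YFP-negative cells. Its YFP-positive values spread over 2.42, and replicate 3 reached into the YFP-negative range (-1.13 ± 0.62, adjusted p = 0.448).

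Symbols do not always follow the subunit in which the protein was later seen in ribosome structures. Mrps30 and Mrps18a carry small-subunit names and sit in the large subunit of mammals. Mrps30 had 4.34, 3.96 and 5.33 in YFP-positive arrays, against 6.03, 4.96 and 5.66 in YFP-negative arrays, with overlap at YFP-positive replicate 3 (-1.01 ± 0.43, adjusted p = 0.308). Mrps18a had 6.68, 6.02 and 6.71 in YFP-positive arrays, against 6.23, 7.06 and 6.53 in YFP-negative arrays (-0.14 ± 0.28, adjusted p = 0.880). Mrps36 is now known in mammals as a part of the 2-oxoglutarate dehydrogenase complex and not of the ribosome. It had 4.44, 4.75 and 3.82 in YFP-positive cells, against 4.33, 4.56 and 3.97 in YFP-negative cells (0.05 ± 0.28).

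The small subunit held 3 of the 5 called genes. Mrps5, whose bacterial counterpart takes part in accurate decoding, had 5.38, 4.77 and 5.06 in YFP-positive arrays, against 7.43, 5.21 and 6.90 in YFP-negative arrays. YFP-negative replicate 2 fell among the YFP-positive arrays, and the difference was -1.44 ± 0.57 (adjusted p = 0.269; 0.0326 without that array). Mrps14 had 2.86, 3.70 and 3.35 in YFP-positive cells, against 5.90, 3.67 and 3.37 in YFP-negative cells, so that its difference of -1.01 ± 0.68 rests on YFP-negative replicate 1. Mrps2, another protein of bacterial descent, had 4.37, 4.65 and 4.23 in YFP-positive cells, against 4.72, 5.62 and 5.08 in YFP-negative cells, apart by a narrow gap (-0.73 ± 0.25, adjusted p = 0.207).

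Mrps12, a protein of the decoding centre, had 5.93, 5.42 and 5.62 in YFP-positive arrays, against 5.61, 5.97 and 5.94 in YFP-negative arrays. The values overlapped, and the interval of the difference ran from -0.62 to 0.25 (-0.18 ± 0.18, adjusted p = 0.699). Mrps18b, the other relative of Mrps18c in the small subunit, had 6.61, 5.58 and 7.29 in YFP-positive cells, against 7.04, 6.86 and 7.0 in YFP-negative cells. Its YFP-positive arrays lay on both sides of the YFP-negative arrays (-0.47 ± 0.41, adjusted p = 0.665). The 3 relatives of the bacterial protein thus had differences of -0.79 (Mrps18c, past the threshold), -0.47 (Mrps18b) and -0.14 (Mrps18a), and these differences were not tested against each other.

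Values above 0 were few. Mrpl14, which lies at the joint between subunits and binds an assembly factor that keeps them apart, had 4.15, 4.90 and 5.17 in YFP-positive cells, against 4.59, 4.14 and 4.05 in YFP-negative cells (0.48 ± 0.30, adjusted p = 0.513). Mrpl37, which has no bacterial counterpart, had 6.49, 6.37 and 6.32 in YFP-positive cells, against 5.53, 6.53 and 5.77 in YFP-negative cells (0.45 ± 0.26, adjusted p = 0.479). In both, the populations overlapped. Mrpl17 (0.26), Mrpl55 (0.13), Mrps15 (0.13), Mrps36 (0.05), Mrpl27 (0.03), Mrps11 (0.02) and Mrpl38 (0.02) completed the 9 genes with a difference above 0, and their adjusted p ran from 0.682 to 0.994.

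Counted by name, 2 of 43 large-subunit genes (4.65%, Mrpl13 and Mrpl16) and 3 of 28 small-subunit genes (10.7%, Mrps16, Mrps35 and Mrps18c) were lower. The share was 1.96% of all genes and 3.77% of genes above the median level. The median difference was -0.72 over the large-subunit genes and -0.57 over the small-subunit genes, with 37 and 25 genes below 0. Counted by place in the structures, the large subunit held 45 genes (median -0.72) and the small subunit 25 genes (median -0.58). No difference between the subunits was tested.

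For 21 of the 71 genes (29.6%), the difference had a 95% interval within -1 and 1, against 72.7% of all genes. Among genes above the median level, the share was 50.9%. Of the 71 genes, a change of 2-fold in either direction was left out only for these 21. A difference of -1 or lower was found for 11 of the 71, against 994 of all 22180 genes. Where a gene had several probes with a single symbol, which held for 9 genes, every further such probe gave a difference of the same sign as the probe used. Of the probes shared with another gene, that of Mrps27 with 6430562O15Rik gave 0.10, against -0.30 on the probe used. Those of Mrps34, Mrpl47 and Mrpl19 gave differences below 0.

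The 3 YFP-positive arrays gave nearly the same picture when taken singly. Set against the mean of the YFP-negative arrays, the median over the 71 genes was -0.58, -0.58 and -0.62 in YFP-positive replicates 1, 2 and 3, with 58, 63 and 57 genes below. Each YFP-negative array, set against the mean of the other YFP-negative arrays, had medians of -0.05, 0.03 and -0.09, with 41, 34 and 39 genes below. The median over all genes was between -0.04 and -0.00092 on every array. Of all genes, 50.1%, 50.8% and 56.7% lay below in YFP-positive replicates 1, 2 and 3. The share was 50.2% to 52.0% in the YFP-negative arrays.

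Markers of some other cell types also differed between the populations. Against the YFP-negative mean, the median of the 16 leukocyte markers was -2.07, -2.05 and 0.19 in YFP-positive replicates 1, 2 and 3. On the same arrays, the median of the 71 mitoribosomal genes was -0.58, -0.58 and -0.62. The median of the 17 proliferation markers was -1.30, -1.39 and -0.40, with 3 of 17 lower past the threshold (Mcm6, Mcm2 and Mcm3, parts of the replicative helicase). With an array left out, Mcm6 and Mcm2 passed only without YFP-positive replicate 3, and Mcm3 only without YFP-positive replicate 1 (adjusted p up to 0.0923, 0.101 and 0.130). The median of the 11 gate and progenitor markers, of which 6 were lower, was -0.78, -1.20 and -0.70. The median of the 18 endothelial markers was 3.57, 3.66 and 3.28, and their mean level was 8.58 to 9.15 in YFP-positive arrays and 4.56 to 5.09 in YFP-negative arrays. The part of leukocyte, endothelial and progenitor content and of proliferation in the mitoribosomal differences was not tested.

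Neutrophil markers ran from 0.31 to 1.05 in the YFP-positive arrays and from -0.94 to 1.59 in the YFP-negative arrays, and 0 of 12 passed limma's test (2 lower and 0 higher at an unadjusted p under 0.05). Of the other lists, 1 of 10 macrophage genes was higher (Vcam1, which endothelium also expresses), 1 of 9 B lineage genes was lower (Cd79b), and none of 8 erythroid and 7 megakaryocyte genes passed (2 erythroid and 0 megakaryocyte genes at an unadjusted p under 0.05). Without YFP-positive replicate 3, 3 of the 71 mitoribosomal genes were lower (Mrpl13, Mrps16 and Mrps35), against 2.33% of all genes in that fit, and the median difference was -0.59.

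**Figure D3:**
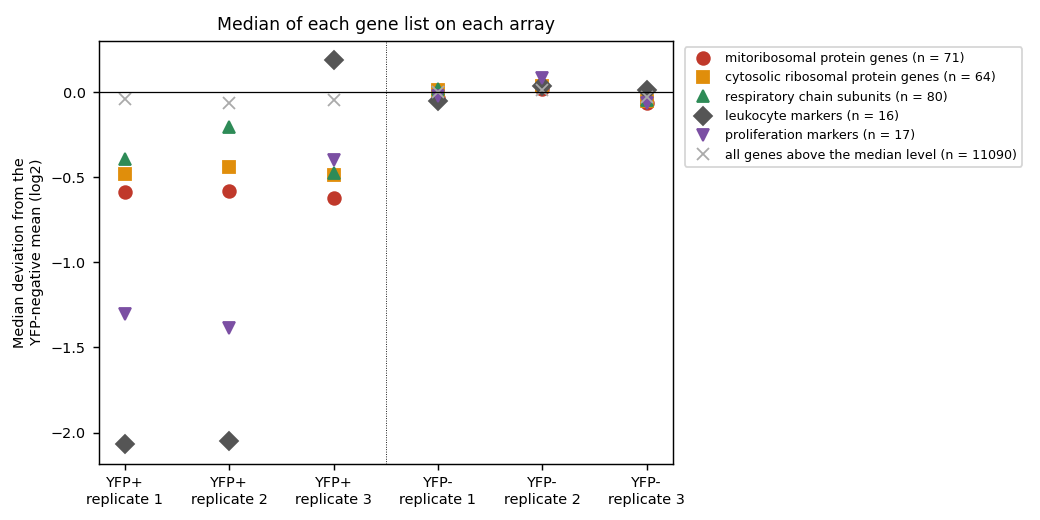
Median deviation of each gene list from the YFP-negative mean (vertical axis, log2) on each of the 6 arrays, YFP-positive arrays left and YFP-negative arrays right. The mitoribosomal genes lie at -0.58 to -0.62 on all 3 YFP-positive arrays, while leukocyte markers lie at -2.07, -2.05 and 0.19 and proliferation markers at -1.30, -1.39 and -0.40.

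The wider machinery of mitochondrial translation was then read from lists of genes. Of the mitoribosomal proteins under symbols of another form, Dap3, Ptcd3 and Gadd45gip1 were measured, and none passed limma's test (0 with the unmoderated model, 1 by an unadjusted p under 0.05). All 3 had differences below 0. Chchd1 and Aurkaip1 had no probe with a single symbol, and Mrp63 and Ict1, also listed, are older symbols of Mrpl57 and Mrpl58, which are among the 71. Dap3, a GTP-binding protein of the small subunit, had 5.18, 4.92 and 5.80 in YFP-positive arrays, against 6.27, 6.59 and 5.89 in YFP-negative arrays (-0.95 ± 0.28, adjusted p = 0.145). No YFP-positive array reached the lowest YFP-negative array.

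Factors that serve the mitoribosome without being part of it had medians closer to 0. Of 13 translation factors, 0 passed limma's test (0 with the unmoderated model, 1 lower by an unadjusted p under 0.05), 10 lay below 0, and the median was -0.15. The lowest p was that of Mtrf1, a release factor, with 4.63, 3.94 and 4.38 in YFP-positive arrays, against 5.53, 5.46 and 5.01 in YFP-negative arrays (-1.02 ± 0.23, adjusted p = 0.0690). Of 26 assembly factors, 0 passed (nor by the unmoderated model, and 0 had an unadjusted p under 0.05), 21 lay below 0, and the median was -0.15. Among these the RNA helicase Dhx30 had the lowest p (-0.46 ± 0.21, adjusted p = 0.332). Above the median level of all genes stood 11 of the 13 translation factors and 21 of the 26 assembly factors, against 67 of the 71 mitoribosomal genes. The part of level in these medians was not tested.

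Of 16 mitochondrial aminoacyl-tRNA synthetases, which charge tRNA for the mitoribosome, 1 was lower, 11 lay below 0 and the median was -0.22. Rars2, the arginine enzyme, had 4.88, 5.07 and 5.16 in YFP-positive arrays, against 5.94, 6.18 and 5.97 in YFP-negative arrays (-1.0 ± 0.13, adjusted p = 0.0136, lost without YFP-negative replicate 2 at 0.0534). The populations were apart by more than their spread. Of 21 genes for mitochondrial transcription and RNA handling, 1 was lower, 18 lay below 0 and the median was -0.54. That gene, Fastkd1, which acts on mitochondrial messenger RNA, stood at 2.97, 3.12 and 3.21 in YFP-positive cells, against 3.61, 3.93 and 3.93 in YFP-negative cells, all below the median level of all genes (adjusted p = 0.0431), and its call was lost whichever array was left out (0.139 at most).

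Of 11 transcriptional regulators of mitochondrial genes, 0 passed limma's test (0 with the unmoderated model, 1 by an unadjusted p under 0.05). Their median was -0.31. Myc, a transcription factor known to raise genes of ribosomes and mitochondria, had 8.47, 6.79 and 7.84 in YFP-positive arrays, against 8.36, 9.18 and 9.24 in YFP-negative arrays. The populations overlapped at YFP-positive replicate 1 and YFP-negative replicate 1 (-1.23 ± 0.47, adjusted p = 0.249). Gabpa, the subunit of the ETS factor that binds DNA, had 7.83, 7.97 and 7.76 in YFP-positive cells, against 7.72, 7.71 and 7.70 in YFP-negative cells (0.15 ± 0.10, adjusted p = 0.588). Nrf1 (-0.34 ± 0.35) and Yy1 (-0.60 ± 0.30) also missed the threshold, at adjusted p = 0.723 and adjusted p = 0.398, and both were named after their values were seen.

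Most genes of the cytosolic ribosome and of the respiratory chain also had differences below 0. Of 64 cytosolic ribosomal protein genes, 17 were lower and 1 higher, 54 lay below 0 and the median was -0.46. Rpl26 had 4.93, 4.77 and 4.88 in YFP-positive arrays, against 5.62, 5.76 and 5.78 in YFP-negative arrays (-0.86 ± 0.11, adjusted p = 0.0118, lost without YFP-negative replicate 2 at 0.0549). The only higher gene, Rpl3, was at 1.48 ± 0.13 on its brightest probe and at -0.21 when all its probes were averaged (adjusted p = 0.838), so that its direction turned with the choice of probe. Of 80 respiratory chain subunits, 5 were lower, 69 lay below 0 and the median was -0.38. Among them, Atp5c1, of the rotor of ATP synthase, had 5.57, 5.61 and 5.76 in YFP-positive arrays, against 6.37, 6.28 and 6.27 in YFP-negative arrays (-0.66 ± 0.11, adjusted p = 0.0246; with an array left out it passed only without YFP-positive replicate 3, and the adjusted p reached 0.0974). Cox6b2, of lowest p, was at -2.28 ± 0.34 (adjusted p = 0.0199) and Sdhd at -0.88 ± 0.15 (adjusted p = 0.0326). With an array left out, Cox6b2 passed only without YFP-positive replicate 3 or YFP-negative replicate 3, and Sdhd only without YFP-positive replicate 1.

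By median, the mitoribosomal genes (-0.69) lay below the cytosolic ribosomal protein genes (-0.46) and the respiratory chain subunits (-0.38). Past the threshold, 7.04% of mitoribosomal, 26.6% of cytosolic ribosomal and 6.25% of respiratory chain genes were lower, against 1.96% of all genes. That order of the shares did not hold in every alternative. With the replicate block, 2 of 71 mitoribosomal genes were lower, and 2 of 64 cytosolic ribosomal genes passed (Rpl6l lower, Rpl3 higher). Without YFP-negative replicate 2, 4 mitoribosomal genes were lower, and the same 2 cytosolic ribosomal genes passed. The 95% interval was within -1 and 1 for 29.6% of mitoribosomal genes, against 53.1% of cytosolic ribosomal and 65.0% of respiratory chain genes. The lists also differed in level. In YFP-positive cells, mean levels ran from 2.27 (Rpl32l) to 12.7 (Rps18) for cytosolic and from 3.30 (Mrps14) to 8.91 (Mrpl42) for mitoribosomal genes. The differences between the lists, and the part of level in them, were not tested.

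**Figure D4:**
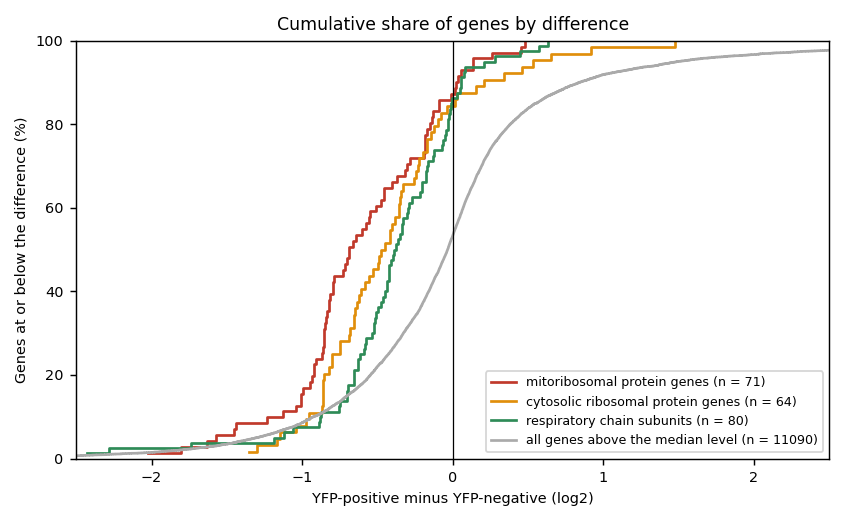
Share of genes (vertical axis, percent) with a difference at or below the value on the horizontal axis (YFP-positive minus YFP-negative, log2), for 71 mitoribosomal protein genes, 64 cytosolic ribosomal protein genes, 80 respiratory chain subunits and the 11090 genes above the median level. The medians are -0.69, -0.46, -0.38 and -0.03, and the mitoribosomal curve lies left of the others over most of its range.

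The promoters of the mitoribosomal genes shared sequence features that the choice of genes did not use. A window from 250 bases before to 50 bases after the start was held for 62 of the 71 genes and for 17492 protein-coding genes, and both strands were searched for exact letters. The GABPA motif CCGGAAG was found in 22 of the 62 windows (35.5%), against 11.9% of all coding genes. The YY1 motif AAGATGGC was found in 12 (19.4%), against 3.22%, and the NRF1 motif GCGCATGC in 7 (11.3%), against 3.61%. At least 1 of these 3 was present in 34 windows (54.8%), against 17.3%.

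Other promoter elements were searched in the same way. The letters CCAAT occurred in 38.7% of the mitoribosomal windows, against 39.0% of coding genes, and the E-box CACGTG, which Myc and other factors bind, in 8.06%, against 7.90%. The TATA box letters TATAAA occurred in 6.45%, against 13.3%. The median GC content was 58.2% in mitoribosomal windows, against 56.3%.

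**Figure D5:**
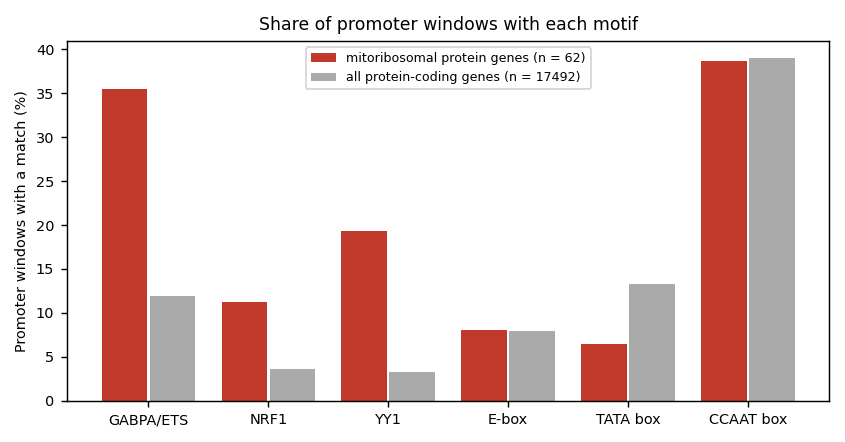
Share of promoter windows with at least 1 exact match to each motif (vertical axis, percent), for 62 mitoribosomal protein genes and 17492 protein-coding genes. The GABPA/ETS, NRF1 and YY1 letters are found in 35.5%, 11.3% and 19.4% of the mitoribosomal windows, against 11.9%, 3.61% and 3.22% of coding genes.

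The difference between populations was also read by these motifs, with no test. The median difference was -0.57 for the 34 genes with a GABPA, NRF1 or YY1 match (30 below 0) and -0.70 for the 28 without (24 below 0). Among the printed sequences, Mrpl32 with 4 NRF1 matches, of which a pair overlaps, had a difference of -1.13, Mrpl22 with a GABPA and an NRF1 match -0.19, and Mrps18a with a GABPA and a YY1 match -0.14. Mrpl16, with no match in its window, had -1.63.

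Many mitoribosomal genes share their promoter with another gene. 21 of the 62 genes (33.9%) had a protein-coding neighbour on the other strand that starts within 1000 bases and runs away from them, against 8.04% of coding genes. The mitoribosomal genes of these pairs had a median difference of -0.60, against -0.0014 for their neighbours, of which 11 of 21 lay below 0. Of the 21 neighbours, 1 was lower and 2 were higher past the threshold, against 1.96% and 2.88% of all genes. Mrpl46 and Mrps11 count on both sides, since each is the other's neighbour.

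Mrpl50 (-1.58) starts 93 bases from Zfp189, a zinc finger gene that was higher in YFP-positive cells, at a mean of 5.73, against 4.44 in YFP-negative cells (1.29, adjusted p = 0.0399, passing only without YFP-negative replicate 1 when an array was left out, and 0.133 at most). Mrpl18 starts 238 bases from Tcp1, a subunit of the cytosolic chaperonin that was lower, at a mean of 7.12, against 8.5 in YFP-negative cells (-1.38, adjusted p = 0.0185, passing only without YFP-positive replicate 1 or 3, and 0.0767 at most). Mrpl18 itself had 3.77, 3.72 and 3.61 in YFP-positive arrays, against 3.85, 5.64 and 4.00 in YFP-negative arrays (-0.80 ± 0.47, adjusted p = 0.490). Within the pair of mitoribosomal genes that share a promoter, Mrpl46 had 5.71, 5.93 and 6.14 in YFP-positive arrays, against 6.31, 6.86 and 6.77 in YFP-negative arrays, without overlap (-0.72 ± 0.19, adjusted p = 0.113). Mrps11 had 6.0, 6.70 and 6.54 in YFP-positive arrays, against 6.95, 6.36 and 5.85 in YFP-negative arrays, with overlap (0.02 ± 0.32, adjusted p = 0.984), and the difference between these genes was not tested. Ppp1r10, which starts 756 bases from Mrps18b and encodes a regulatory subunit of a protein phosphatase, was the other neighbour that was higher (0.84, adjusted p = 0.0306, passing only without YFP-positive replicate 3 or YFP-negative replicate 1, and 0.109 at most).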

How the data were processed

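Expression was measured on 6 arrays, 3 of YFP-positive and 3 of YFP-negative LSK cells, grouped by the labels. Per the labels' protocols, 500 pg of RNA was amplified per array (Ovation Pico V2), 3.6 µg of product was labelled, and all RNA was isolated at the same time. The authors deposited log2 expression values for 41345 probes, made with Partek per the submitters' processing notes. Of background correction, summarisation and normalization nothing is given in the sources used here, and that the scale is log2 was read from the values (1.53 to 13.7). The number of arrays limits the precision.

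Of the probes, 23521 had 1 gene symbol, 1814 several and 16010 none. The brightest probe of each symbol gave 22180 genes. They were fitted with limma 3.58.1 in R 4.3.3 (lmFit and eBayes, a two-sided test with population as the only term), and p-values were adjusted over all of them (Benjamini-Hochberg, threshold 0.05). The script was tested on simulated data. Differences are YFP-positive minus YFP-negative, with the moderated standard error. The identifiers of all 71 members were found under the same symbol in RefSeq (GRCm38.p6), the source of the promoter windows. The array's own genome build is not given in the sources used here, so coordinates are those of RefSeq.

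Members and gene lists were chosen with earlier results of these data known. Named members are those past the threshold, the 8 with the largest difference in each direction, the 3 with the widest range, and Mrpl12, Mrpl3, Mrpl11, Mrps12, Mrps2, Mrps18a, Mrps18b, Mrps18c, Mrps30, Mrps35 and Mrpl41 for their role (Mrpl41 had no value). From each other list past the threshold up to 3 genes of lowest p were taken, otherwise 1, and Cdh5, Ptprc and Kit check the labels. Not every gene taken from these other lists is described. Other members, and their classes by structure, were named after their values were seen. Alternatives were median centring, quantile normalization, the mean of all probes, a filter on level, an intensity trend with a robust prior, no moderation, array weights, a replicate block and leaving out each array.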

Additional observations from a re-analysis of the deposited data

How the results depend on the processing

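The direction held in every alternative run: 0 of the 71 genes were higher, and 60 to 65 had a difference below 0 (59 of 67 with the filter on level). The intensity trend, the unmoderated model and the replicate block leave the differences themselves unchanged, so their signs could not differ there. The number that were lower, 5 in the report, was 8 with the filter on level, 7 with median centring, 2 with the replicate block (Mrpl13 and Mrps16), 0 with the unmoderated model, and 3 to 4 when an array was left out. Of all genes tested, 4.59% were lower with the filter on level, 2.12% with median centring and 0.757% with the replicate block. The share was 0.158% with the unmoderated model and 0.50% to 2.33% when an array was left out. The genes behind that count changed: without YFP-positive replicate 2, Mrpl42 entered, and without YFP-negative replicate 1, 2 or 3, Mrpl50 and Mrps10, Mrps5, or Mrps9 entered. Mrpl13 passed in every alternative but the unmoderated model (adjusted p = 0.0568). The median difference of -0.69 ran from -0.67 to -0.53 when an array was left out. Large-subunit genes that were lower, 2 in the report, numbered 4 with median centring, 4 with the filter on level, 0 unmoderated, 1 with the block and 1 to 2 without an array, and small-subunit genes, 3 in the report, numbered 0, 1 and 1 to 3 in the last 3 of these. The 1074 genes past the threshold among all genes became 180 unmoderated, 580 with the block, and 430 to 1185 without an array (1185 without YFP-positive replicate 3).

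Of the lists, aminoacyl-tRNA synthetases (1 in the report) gave 2 with the filter on level, 0 unmoderated and 0 to 2 without an array. Transcription and RNA handling genes (1) gave 0 with the filter on level, which leaves Fastkd1 out, 0 unmoderated, 0 with the block and 0 without any array. Cytosolic ribosomal protein genes (18) gave 10 with quantile normalization, 6 unmoderated, 2 with the block and 2 to 11 without an array. Respiratory chain subunits (5) gave 8 with the filter on level, 1 with the trend and robust prior, 0 unmoderated, 0 with the block and 0 to 3 without an array. Rpl3 reversed to -0.21 with the mean of all probes. For named members, 336 of the alternative values kept their side of the threshold, 24 lost and 2 gained the call, and 0 reversed with a call. A change of sign in a gene that passed in neither fit was counted as kept, so not all of these kept direction. The causes of these changes, other than fewer arrays or fewer genes tested, were not tested. Same-numbered arrays deviated together at r = 0.098, 0.081 and 0.17, and each array correlated best with its own number, which is a hint from the data and not from the design, so the numbers were not taken to pair the samples.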

Other observations

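The 7 mitoribosomal genes outside the comparison were read only by probes that also carry another gene's symbol, so their values cannot be assigned to them alone. The probe of Mrpl43 and Twnk, the mitochondrial helicase, had a mean of 4.72 ± 0.45 (SD of 3 arrays) in YFP-positive cells, against 5.56 ± 0.41 in YFP-negative cells, which differ by -0.84. The probe of Mrpl30 and Gm6238 had a mean of 6.22 ± 0.28 in YFP-positive cells, against 6.99 ± 0.11 in YFP-negative cells, which differ by -0.78. The differences were -0.66 and -0.33 for the probes of Mrpl33 with Babam2 and with Gm38424, -0.32 for Mrpl44 with Wdfy1, -0.18 for Mrps6 with Slc5a3 and 0.02 for Mrpl41 with Dph7. Both probes of Mrpl53 with Ccdc142 gave values of opposite sign, 0.87 and -0.07. These probes were not tested.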
